A study of Mus musculus with 16 samples.

Results

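Mouse pre-B cells in which the adaptor BLNK had been switched on for 0.5 h were compared with the control cells of the same experiment. The comparison uses 8 of the 16 samples of the series, the 4 lanes of the control library and the 4 lanes of the library made 0.5 h after stimulation. Exon reads were set side by side over all 38918 features of the deposited table. All cells came from Blnk-/- mice, and all were infected with a retroviral construct that encodes BLNK-ERt2, BLNK fused to a tamoxifen-inducible oestrogen receptor domain. The groups therefore share the deletion, the virus and the fusion protein, and differ in the stated stimulation of 0.5 h. Whether the control cells were given a vehicle is not stated, nor is the number of mice, cultures or infected clones behind them. The stated purpose of the series was to find genes regulated after signalling of the pre-B cell receptor. The 4 lanes of a condition carry 1 index and were summed to 1 library, so there is no replicate spread, no test and no p-value between conditions. Ranges in brackets are exact 95% intervals that cover counting error only.

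The pre-B cell receptor pairs a mu heavy chain with a surrogate light chain and signals through CD79A and CD79B to the kinases SYK and BTK. BLNK is the scaffold on which these kinases meet phospholipase C gamma, which opens the calcium, protein kinase C and RAS to MAP kinase branches. Genes that respond to such signals within minutes, without new protein, are called immediate early genes. Many of them encode transcription factors, phosphatases that switch the kinases off again, and proteins that destroy short-lived mRNAs.

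The libraries were alike in size, with 34533362 total exon reads in the control and 33864004 at 0.5 h, in lanes of 8414334 to 8709054 reads. A count of 0 in a library allows up to 3 reads, or 0.0869 CPM (reads per 1000000 total exon reads) in the control and 0.0886 CPM at 0.5 h. Between lanes, unique reads had a chi-square per degree of freedom of 1.01 (control) and 0.995 (0.5 h), near sampling noise. For total exon reads it was 1.32 and 1.30, so intervals are too narrow for genes whose reads fit several places. Of 18 pre-B cell markers 16 were measured from 1 CPM, and together they summed to 13478 to 13600 CPM in the control lanes and 12836 to 12912 CPM in the 0.5 h lanes. T and NK cell markers summed to 40.2 CPM in the control and 41.1 CPM at 0.5 h, with 8 of 16 at 0 in both libraries. Cd28 (19.8 and 19.6 CPM) and Klrb1c (16.3 and 17.7 CPM) gave most of this sum. Myeloid markers summed to 131 and 124 CPM with 2 of 15 at 0, mostly from Itgam (69.0 and 66.3 CPM) and Ctss (54.3 and 47.2 CPM). Of 14 stromal markers 7 were at 0 in both libraries and 5 under 1 CPM. Vim (498 and 468 CPM) and Pecam1 (144 and 134 CPM) were the others, and many blood cells also express them. Blnk itself was read at 3495 to 3529 CPM in the control lanes and 3793 to 3820 CPM in the 0.5 h lanes, and these counts do not separate the fusion from the endogenous locus.

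After 0.5 h few genes differed from the control, and nearly all of those were higher. A gene was called when its ratio, with 1 CPM added on each side, reached 2-fold and its higher library reached 5 CPM. By this rule 27 of 9516 genes were higher (0.284%) and 2 were lower (0.021%). Around them the distribution was narrow: 93.0% of genes lay within 1.2-fold of the control, the median log2 ratio was -0.0032, and 95% of genes lay between -0.23 and 0.36. The genes below 0, 4864, slightly outnumbered the 4652 above it. Of the 27 higher genes, 5 were at least 8-fold, 9 at least 4-fold and 18 at least 3-fold above the control in CPM. Together they took 846 CPM of the control library and 2736 CPM of the 0.5 h library. In the control 11 of them stood under 5 CPM. In bulk libraries such as these, fewer responding cells and less RNA per cell cannot be told apart.

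**Figure D1:**
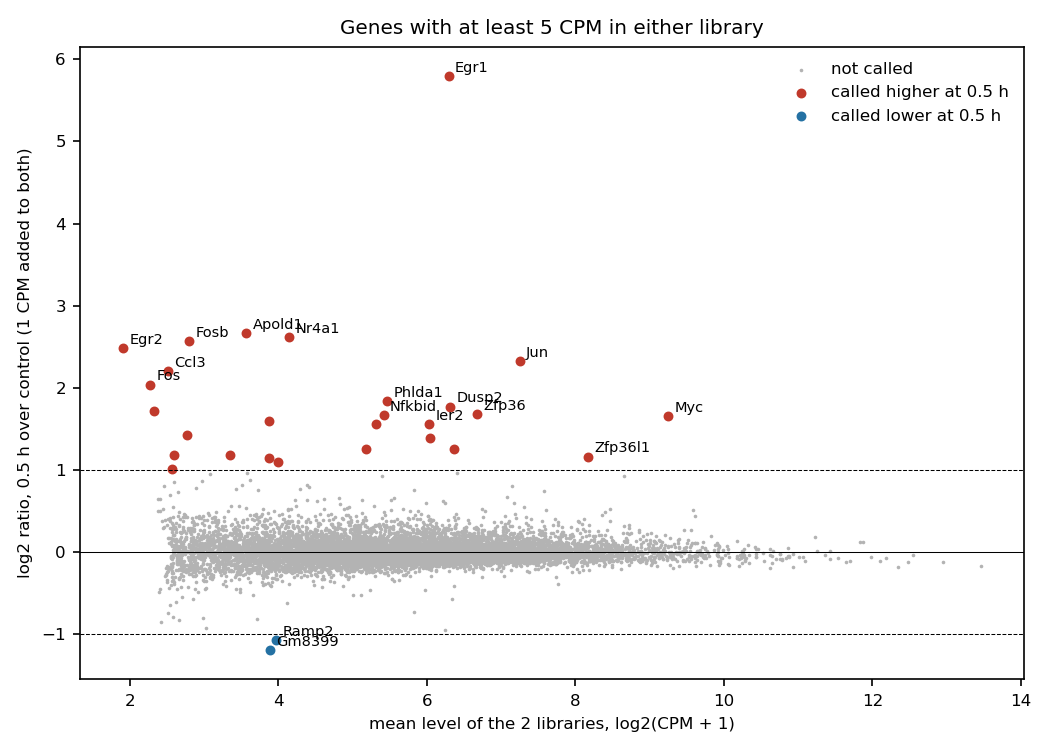
Log2 ratio of 0.5 h over control (vertical axis, 1 CPM added to both libraries) against the mean level of both libraries (horizontal axis, log2 of CPM + 1) for the 9516 genes that reach 5 CPM in a library, 1 point a gene. Dashed lines mark 2-fold; the 27 genes called higher (red) and the 2 called lower (blue) lie outside a band that holds nearly all other genes (grey), with Egr1 at 5.80.

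Transcription factors and other nuclear proteins made up the largest group of called genes, 10 of 27. The EGR zinc fingers bind GC-rich sites and are themselves classical MAP kinase targets. Among all called genes Egr1 had the largest log2 ratio, 5.80, while Egr2 (2.48) and Egr3 (1.72) lay among the others. Egr1 lanes read 1.61, 1.99, 1.28 and 2.20 CPM in the control and 155, 153, 152 and 153 CPM at 0.5 h, so no lane came near the other library. Egr2, nearly silent in the control with 5 reads in 4 lanes (0 to 0.23 CPM a lane), had 183 reads at 0.5 h (5.23 to 5.62 CPM a lane), a ratio of 37.3 (15.7 to 116). Egr3 lanes lay between 1.05 and 1.49 CPM in the control and between 5.98 and 7.43 CPM at 0.5 h, 5.01-fold higher (3.64 to 7.04). Per kilobase of exon, 0.5 h levels were 34.2 CPM for Egr1, 4.71 for Egr3 and 1.59 for Egr2, which puts Egr1 far above its relatives. All exon reads of the 3 genes were uniquely placed.

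Both FOS and JUN subunits of AP-1, the dimeric factor that binds TGANTCA sites, were called. Fos lanes read 0.57, 1.52, 0.70 and 0.81 CPM in the control and 7.85, 6.66, 5.69 and 6.96 CPM at 0.5 h, 7.57-fold higher (5.19 to 11.4). Fosb lanes read 0.69 to 1.49 CPM and then 9.49 to 13.3 CPM. Jun was already expressed, at 48.7 to 51.4 CPM a control lane, and stood at 248 to 257 CPM in the 0.5 h lanes. Junb went from 31.6 to 36.9 CPM a lane to 92.3 to 98.7 CPM, 2.66-fold higher (2.49 to 2.84). Per kilobase, Jun (79.5 CPM) and Junb (51.3 CPM) exceeded Fos (2.89 CPM) and Fosb (2.92 CPM) at 0.5 h. Fosl2, a FOS relative, fell just under the threshold at 4.58 and 9.13 CPM (log2 ratio 0.86), and Jund reached 1.60-fold (1.53 to 1.66).

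The other transcription factors and nuclear proteins of this group were Nr4a1, Myc and Ier2. Nr4a1, an orphan nuclear receptor induced by antigen receptors, had lanes of 4.36, 3.39, 3.49 and 4.74 CPM in the control and 27.4, 29.4, 32.2 and 29.3 CPM at 0.5 h. Its relative Nr4a3 went from 2.72 to 4.55 CPM, 1.67-fold (1.28 to 2.18), and was not called. Nor was Nr4a2, which went from 7.56 to 8.92 CPM (log2 ratio 0.21). Myc, the growth regulator, was the most abundant called gene, with control lanes of 289 to 296 CPM and 0.5 h lanes of 907 to 939 CPM. Ier2, a small nuclear protein, was 3.01-fold higher (2.81 to 3.22), from 30.9 to 33.1 CPM a lane to 95.2 to 100.4 CPM. In Nr4a1, Myc and Ier2 the lanes of the libraries did not overlap. Lanes are technical repeats of 1 library, so such separation, here and below, speaks to counting error only.

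Promoter sequence was available for 18 of the 27 called genes in a RefSeq table of start sites on build GRCm38.p6. The 250 bases upstream of the start are shown for the 5 genes with the largest ratios for which they may be printed, since a reader may want to look for response elements in them. Capitals mark matches to the searched motifs on either strand: a TATA box (TATAAA) in Apold1 (chr6:134981751-134982000, plus strand), an EGR site (GCGNGGGCG) in Nr4a1 (chr15:101266596-101266845, plus strand), an NF-kB site and an EGR site in Fosb (chr7:19310046-19310295, minus strand), and overlapping NF-kB sites in Egr2 (chr10:67535249-67535498, plus strand), whose RefSeq start lies 24 bases from the start of the gene in the deposited table. Jun (chr4:95052223-95052472, minus strand) held none of the motifs in this window.
Apold1: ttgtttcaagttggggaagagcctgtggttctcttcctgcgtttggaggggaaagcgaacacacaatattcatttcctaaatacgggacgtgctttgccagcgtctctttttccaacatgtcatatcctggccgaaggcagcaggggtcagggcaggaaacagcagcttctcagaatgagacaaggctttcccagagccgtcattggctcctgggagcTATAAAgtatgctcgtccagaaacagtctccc
Nr4a1: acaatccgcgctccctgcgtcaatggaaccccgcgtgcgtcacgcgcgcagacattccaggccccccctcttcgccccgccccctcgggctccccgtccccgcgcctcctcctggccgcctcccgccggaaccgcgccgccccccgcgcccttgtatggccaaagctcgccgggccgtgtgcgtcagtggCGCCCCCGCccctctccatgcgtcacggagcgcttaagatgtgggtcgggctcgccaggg
Fosb: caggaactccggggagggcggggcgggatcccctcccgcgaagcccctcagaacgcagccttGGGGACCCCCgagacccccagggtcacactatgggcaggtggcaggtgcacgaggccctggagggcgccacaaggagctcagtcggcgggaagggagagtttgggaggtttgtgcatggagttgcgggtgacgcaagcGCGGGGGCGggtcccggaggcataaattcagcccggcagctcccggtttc
Egr2: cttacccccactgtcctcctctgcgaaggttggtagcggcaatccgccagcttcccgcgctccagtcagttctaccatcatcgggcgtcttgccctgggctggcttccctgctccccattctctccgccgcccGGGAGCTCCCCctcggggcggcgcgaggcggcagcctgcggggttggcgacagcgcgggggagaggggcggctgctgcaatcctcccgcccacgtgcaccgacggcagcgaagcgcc
Jun: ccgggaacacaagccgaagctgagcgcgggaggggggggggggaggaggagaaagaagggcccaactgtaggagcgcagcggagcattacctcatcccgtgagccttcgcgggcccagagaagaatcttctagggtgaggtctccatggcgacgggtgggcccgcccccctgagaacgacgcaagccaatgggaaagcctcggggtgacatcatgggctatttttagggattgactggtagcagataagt

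Across the 18 promoters each motif was found in a handful. An EGR site stood in 4 of 18 (Dusp2, Fosb, Nr4a1 and Zfp36; 22.2%), beside 8.87% of the 7129 promoters of genes at 5 CPM and 6.24% of all 17362 promoters in the table. The TATA box stood in 4 (Apold1, Fos, Tnf and Zfp36l1; 22.2%, beside 5.54% and 11.9%), the last base 24 to 28 bases before the start in these genes. An NF-kB site stood in 3 (Egr2, Fos and Fosb; 16.7%, beside 8.47% and 7.65%). A cyclic AMP response element, TGACGTCA, stood in Dusp1 and Ppp1r15a (11.1%, beside 2.99% and 1.99%). A serum response element (CArG box) stood in Zfp36 alone (5.56%, beside 0.912% and 1.30%), and an AP-1 site in Zfp36l1 alone (5.56%, beside 3.45% and 6.16%). These are matches of letters in a short window and carry no test. Median GC content was 60.6% in the 18 promoters and 60.4% in the 7129.

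A further 5 called genes act on kinases and small GTPases. Dusp2 and Dusp1 encode phosphatases that inactivate MAP kinases. Dusp2 (chromosome 2, 127336159 to 127338376) had control lanes of 36.2, 33.8, 34.7 and 36.0 CPM and 0.5 h lanes of 116, 128, 118 and 128 CPM. Dusp1 was scarce, at 2.20 to 3.04 and 6.76 to 7.97 CPM a lane, 2.72-fold higher (2.14 to 3.49). Plk3, a stress-responsive polo-like kinase, was 3.31-fold higher (2.62 to 4.22), from 2.10 to 3.10 CPM a lane to 7.61 to 10.03 CPM. Gem, a RAS-like GTPase that restrains voltage-gated calcium channels, was 3.33-fold higher (2.85 to 3.89), with lanes of 4.62 to 8.64 and 20.1 to 21.8 CPM. Rhob, a small GTPase, was 3.04-fold higher (2.78 to 3.32), with lanes of 18.1 to 21.7 and 54.4 to 61.2 CPM. For each of the 5 the lanes, technical repeats of 1 library, did not overlap between the libraries.

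Phlda1 and Dusp2, with Dusp1, were the called members of the list of MAP kinase feedback genes. Phlda1 (chromosome 10, 111506286 to 111508645), a pleckstrin homology protein, stood at 16.7 to 19.5 CPM in the control lanes and 64.0 to 73.3 CPM at 0.5 h, 3.72-fold higher (3.41 to 4.07). Of the 18 measured members of this list 3 were called higher, beside 0.245% of all 11010 measured genes. Ratios were above 0 for 14 and below 0 for 4, where 49.1% of those genes lay above 0. The median log2 ratio was 0.29, beside -0.0028 over those genes. Among the Sprouty genes, inhibitors of RAS signalling, Spry2 went from 14.6 to 26.05 CPM, 1.78-fold (1.60 to 1.995), and Spry4 from 22 to 79 reads, which is 3.66-fold (2.26 to 6.17) but under the floor at 2.33 CPM. In exon reads Dusp5 and Dusp7 lay slightly below 0, at -0.11 and -0.14. The list members were chosen with earlier results of these data known, so their counts are a description.

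Zfp36, Zfp36l1 and Ppp1r15a act on mRNA lifetime or translation. Zfp36 (tristetraprolin) and its relatives bind AU-rich elements and speed the decay of the mRNAs that carry them. Zfp36 (chromosome 7, 28376784 to 28379255) had lanes of 48.7, 47.4, 47.5 and 46.7 CPM in the control and 152, 153, 157 and 156 CPM at 0.5 h, 3.25-fold higher (3.07 to 3.44). Zfp36l1, more abundant at 169 to 182 CPM a control lane, reached 391 to 406 CPM, 2.24-fold higher (2.17 to 2.31). With 5.53% of its reads unique it missed the rule in unique reads, in which it was 1.98-fold higher (1.74 to 2.25). A further relative, Zfp36l2, was just outside the rule at 277 and 527.5 CPM (log2 ratio 0.92). Ppp1r15a, a phosphatase subunit that restores translation under stress, had lanes of 18.02 to 23.1 and 45.8 to 53.2 CPM. Of 19 measured regulators of mRNA decay 17 had ratios above 0, as 49.1% of all 11010 measured genes did, 2 were called, beside 0.245% of those genes, and the median was 0.18. Tob2, an adaptor of the deadenylase, was next at 1.75-fold (1.68 to 1.82).

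Among secreted proteins and regulators of cytokine signalling, 4 genes were called. Ccl3, a chemokine, had lanes of 0.80, 1.05, 1.51 and 0.81 CPM in the control and 7.38, 8.20, 8.30 and 9.67 CPM at 0.5 h. Its neighbour in function Ccl4 had 2 reads in the control and 57 at 0.5 h, a ratio of 29.1 (7.69 to 246), under the floor at 1.68 CPM. Tnf lanes lay at 7.12 to 9.06 and 16.9 to 21.2 CPM. Nfkbid, a nuclear modulator of NF-kB, lay at 17.8 to 21.8 and 59.9 to 70.1 CPM, and Cish, an inhibitor of STAT5 signalling, at 46.8 to 49.7 and 112 to 118 CPM. None of these lane ranges overlapped. Osm, the cytokine oncostatin M, was just outside the rule, from 7.12 to 14.8 CPM (log2 ratio 0.96).

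The remaining called genes were Apold1 and 3 features with doubtful reads. Apold1 (chromosome 6, 134982001 to 134986836), an immediate early gene of the endothelium, had lanes of 2.07, 1.64, 2.09 and 3.12 CPM in the control and 20.4, 19.7, 19.7 and 18.4 CPM at 0.5 h, 8.77-fold higher (6.92 to 11.3), the largest log2 ratio after that of Egr1. Tsix lanes read 6.43, 5.26, 7.09 and 2.31 CPM in the control and 11.2, 22.6, 9.84 and 9.20 CPM at 0.5 h. Tsix is transcribed antisense to Xist, the strand of counting is not given, and 5.25% of its reads were unique, so its reads cannot be told apart from those of its partner. The predicted gene Gm20390 (0.0979% unique), which overlaps Nme1 and Nme2, and the histone gene Hist1h2ap (20.9% unique) were called at log2 ratios of 1.09 and 1.01, and the lanes of Gm20390 overlapped, at 4.04 to 14.01 and 13.4 to 28.0 CPM. In unique reads, 23 of the 27 genes passed the same rule, all but Gm20390, Hist1h2ap, Tsix and Zfp36l1. Actg1, cytoplasmic gamma actin, passed only in unique reads, with 1.08% of its reads unique (log2 ratio 1.77 in these, 0.51 in all reads).

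**Figure D2:**
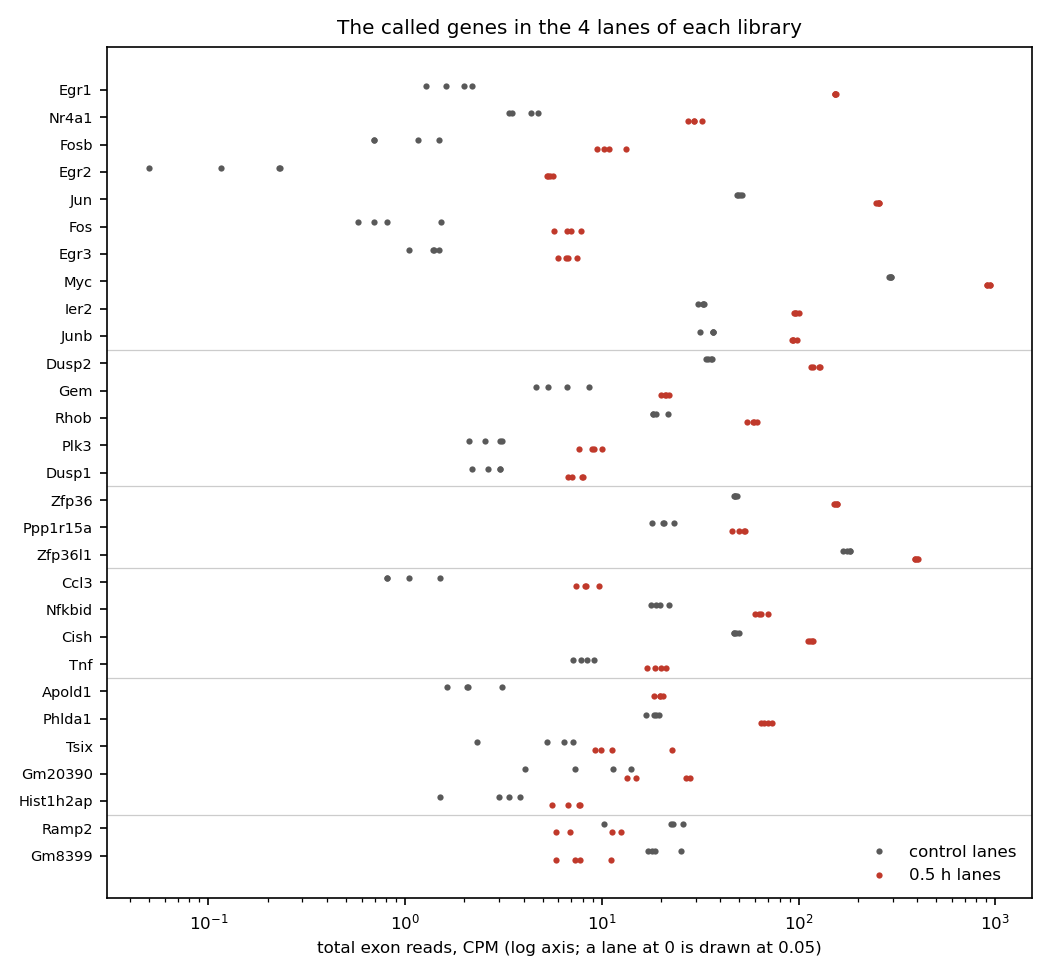
CPM of total exon reads (horizontal axis, log scale) in the 4 control lanes (grey) and 4 lanes of 0.5 h (red) for the 29 called genes, grouped by role. Lanes are technical repeats of 1 library; grey and red points stand apart for all genes from Egr1 to Phlda1, and overlap for Gm20390 and Ramp2.

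Genes lower at 0.5 h were few and poorly placed. The called ones, Gm8399 and Ramp2, had 0 and 0.099% of their reads unique. Without lane 1 neither call was kept, and without lane 2 that of Ramp2 was lost. At a threshold of 1.5-fold, 64 genes were higher (0.673%) and 14 lower (0.147%). Of the 64 higher genes 49 had at least 50% of their reads unique, and of the 14 lower genes 1 did, Gadd45b. Under 50% unique were 9.44% of all 9516 genes. Gadd45b (chromosome 10, 80930091 to 80932204), a growth arrest gene that responds to NF-kB, had control lanes of 19.7, 19.6, 19.2 and 22.2 CPM and 0.5 h lanes of 13.0, 12.8, 10.8 and 14.2 CPM, which do not overlap, 1.59-fold lower with a ratio of 0.629 (0.557 to 0.710). It stood at 11.0 CPM at 1.5 h and 10.25 CPM at 5 h. Rag1, a chain of the V(D)J recombinase, went from 6.63 to 3.40 CPM, but with 7.85% of its reads unique and overlapping lanes (4.53 to 8.43 and 1.87 to 4.86 CPM).

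The threshold cut through a continuous group of genes. Just inside it lay Hist1h2ap (log2 ratio 1.01), Gm20390 (1.09), Tnf (1.15) and Zfp36l1 (1.16). Just outside it, between 1.8-fold and 2-fold, lay 8 higher genes: Osm, Gm4759, Gm12783, Cd69, Zfp36l2, Pim3, Fosl2 and Coq10b, with log2 ratios from 0.96 down to 0.85. On the lower side RPL24, Gm10282 and Gm15441 lay there, from -0.96 to -0.85, with 0.639, 0.609 and 20.5% of their reads unique. A further step down were well-placed regulators such as Klf6, a zinc finger immediate early gene, with control lanes of 40.4 to 42.4 CPM and 0.5 h lanes of 67.2 to 73.6 CPM, 1.71-fold higher (1.60 to 1.82). Mycn, a relative of Myc, had lanes of 52.7 to 64.6 and 85.9 to 92.0 CPM, 1.54-fold (1.46 to 1.63). Hipk2, a nuclear kinase, had lanes of 111 to 118 and 171 to 175 CPM, 1.52-fold (1.46 to 1.58). Lanes of the libraries did not overlap in these 3 genes.

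The 27 genes were mostly compact, although the longest spanned 53441 bases. Their median span on the genome was 3384 bases, beside 23036 bases over the 9516 genes, and 24 of 27 spanned less than 10000 bases, as 24.7% of the genes did. Their exon lengths differed less, with medians of 2352 and 3812 bases. In 5 of the 27 (18.5%) the span equalled the exon length, so the table holds no intron, as in 2.05% of all genes: Jun, Junb, Ier2, Rhob and Hist1h2ap. Rhob, for example, covers chromosome 12 from 8497763 to 8499985 (mm10), and Jun chromosome 4 from 95049034 to 95052222. Fos spans 3384 bases on chromosome 12, 85473890 to 85477273, the median of the group.

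Reads inside a gene but outside its exons can come from introns of unspliced RNA, and were counted here as unique gene reads minus unique exon reads. They numbered 4347462 in the control and 4281925 at 0.5 h, 13.0% of unique gene reads in each library. With a threshold of 2-fold and at least 50 such reads in the higher library, 51 of 9036 genes were called higher (0.564%) and 18 lower (0.199%). Of the 27 genes called in exon reads, 10 had enough reads outside exons to be called, 9 of these were called, and 8 had none at all in either library. The genes called in non-exon reads were mostly others: 42 of the 51 were not called in exon reads, with median log2 ratios of 1.23 outside exons and 0.18 inside.

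Nr4a1 stood out in both readouts. It had 2, 1, 1 and 1 non-exon reads in the control lanes and 29, 44, 28 and 25 at 0.5 h, a ratio of 25.6 (10.7 to 80.2), against 7.40 in exon reads. Myc had 134 to 145 such reads a lane in the control and 561 to 610 at 0.5 h, 4.26-fold higher (3.88 to 4.68). Nfkbid went from 216 to 884 reads, 4.16-fold (3.58 to 4.84), and Gem from 21 to 132, 6.38-fold (4.01 to 10.7). For Egr3, with 1 read in the control and 61 at 0.5 h, the ratio of 61.9 had an interval of 10.7 to 2486. The exception among the 10 genes was Zfp36, with 63 and 82 reads, 1.32-fold (0.940 to 1.87), although its exon reads were 3.25-fold higher.

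Irf4 and Rilpl2 were among the genes whose ratio of 0.5 h to control was far larger outside exons than in exon reads. Irf4, a transcription factor that promotes light chain rearrangement and the exit from the pre-B cell cycle, had non-exon reads of 92, 100, 91 and 82 in the control lanes and 395, 402, 419 and 388 at 0.5 h. That is 4.46-fold higher (3.98 to 5.01), beside 1.68-fold (1.62 to 1.74) in exon reads, which stood at 142 CPM in the control and 239 CPM at 0.5 h. At 1.5 and 5 h the exon level was 445 and 347 CPM. Rilpl2 (chromosome 5, 124463265 to 124478366), a RILP-like adaptor protein, had 55 to 56 non-exon reads a lane and then 306 to 329, 5.82-fold higher (5.04 to 6.74). Its exon level was 50.2 CPM in the control, 69.6 CPM at 0.5 h, 116 CPM at 1.5 h and 112 CPM at 5 h.

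Other genes of this kind included phosphatases and a clock gene. Ptpn6 encodes SHP-1, a phosphatase that dampens B cell receptor signals. Its non-exon reads went from 390 to 1306, 3.40-fold (3.03 to 3.82), while exon reads went from 224 to 242 CPM, and then stood at 407 CPM at 1.5 h and 386 CPM at 5 h. Dusp3, a MAP kinase phosphatase, went from 50 to 199 non-exon reads, 4.04-fold (2.95 to 5.63), with exon levels of 22.2, 28.4, 58.3 and 28.9 CPM in the control and at 0.5, 1.5 and 5 h. Per1, a repressor of the circadian clock that also responds to CREB, went from 31 to 118 non-exon reads, 3.86-fold (2.58 to 5.94), with exon levels of 49.95, 75.8, 122 and 53.4 CPM. Twsg1, a modulator of BMP signals, went from 129 to 369 reads, 2.90-fold (2.37 to 3.58), with exon levels of 130, 152, 284 and 409 CPM. For Ptpn6, Dusp3, Per1, Twsg1, Irf4 and Rilpl2 the 1.5 h exon level exceeded the 0.5 h level. They are examples named by their non-exon ratio, and the later libraries are set against the same control. How many of the 42 genes called outside exons but not in exon reads had this order is not given here. Cd24a (103 and 351 reads) and Plekho2 (156 and 430 reads) had the same order of exon levels from control to 1.5 h.

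A few genes of the cytoskeleton that serum response factor is known to drive were called outside exons. Of the 18 measured members of this list 0 were called in exon reads, with a median of 0.08. Of the 15 with enough non-exon reads 3 passed the rule upwards and 0 downwards, where 0.569% of the 8442 genes measured in both readouts passed upwards and 0.201% downwards. The list had 11 ratios above 0 and 4 below, with a median of 0.34, beside 0.0002 over those genes. The called members were Wdr1, an actin disassembly factor, with 306 and 745 reads (2.47-fold, 2.16 to 2.83), Cnn2, a calponin, with 99 and 223 (2.29-fold, 1.797 to 2.93), and Actb, beta actin, with 52 and 107 (2.09-fold, 1.49 to 2.97). Actb lost its call when lane 1 was left out, when 5 CPM was added in place of 1, and when total in place of unique reads were used. Exon reads of Wdr1 went from 194 to 183 CPM, of Cnn2 from 54.0 to 57.1 CPM and of Actb from 3608 to 3912 CPM.

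Among the 18 genes with fewer reads outside exons at 0.5 h, 15 also had exon ratios below 0, with a median exon log2 ratio of -0.13 over all 18. Bnip3 (chromosome 7, 138890836 to 138909519), a mitophagy receptor induced by hypoxia and FoxO factors, led them: its lanes held 117, 102, 110 and 112 non-exon reads in the control and 26, 33, 28 and 36 at 0.5 h, a ratio of 0.283 (0.230 to 0.347). Its exon level was 224 CPM in the control and 201 CPM at 0.5 h. Trp53inp1, a stress gene of the p53 and autophagy programmes, went from 598 to 271 reads (0.460, 0.397 to 0.532), and Ccng2, a cyclin of quiescent cells and a FoxO target, from 281 to 135 (0.488, 0.394 to 0.601). At 1.5 h the exon levels of these 2 genes were 206 and 111 CPM, beside 366 and 211 CPM in the control. Cd79b, a signalling chain of the receptor, went from 318 to 149 reads (0.476, 0.389 to 0.580), with exon levels of 383 CPM in the control, 336 at 0.5 h, 286 at 1.5 h and 282 at 5 h. Pgf, a growth factor of the VEGF family, went from 160 to 76 reads, with exon levels of 11.0 CPM in the control, 11.1 at 0.5 h and 2.57 at 1.5 h. In the list of FoxO factors and targets, 1 of 16 members with enough non-exon reads was called lower and 0 higher. Over the 8442 genes measured in both readouts 0.201% were called lower. The list had 9 non-exon ratios above 0 and 7 below, with a median log2 ratio of 0.06.

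**Figure D3:**
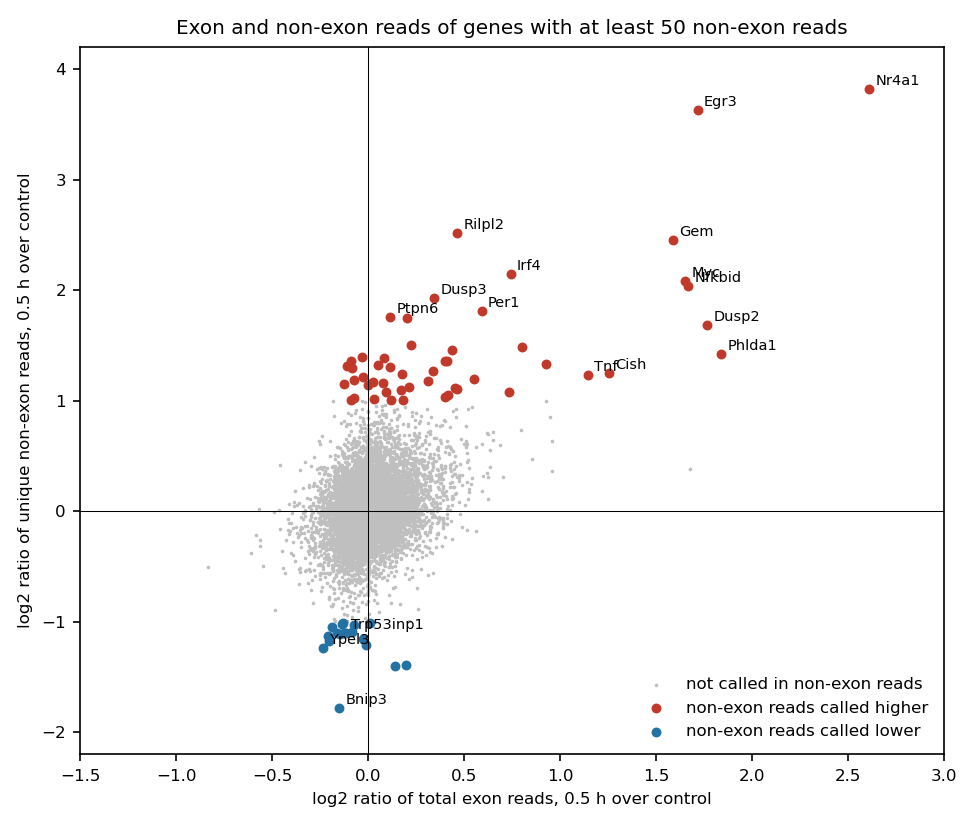
Log2 ratio of 0.5 h over control in unique reads outside exons (vertical axis) against that in total exon reads (horizontal axis) for genes with at least 50 non-exon reads in either library, 1 point a gene. Red points are the 51 genes called higher and blue points the 18 called lower outside exons. Most lie further from 0 on the vertical axis than on the horizontal one, as Irf4 (2.14 and 0.74), Rilpl2 and Bnip3 do.

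The called genes differed in what their exon level was at the later times, which are given side by side because all comparisons share the control library. Egr1 stood at 12.3 CPM at 1.5 h and 3.61 CPM at 5 h, beside 1.77 CPM in the control. Fos (1.04 CPM at 1.5 h), Dusp1 (2.60 CPM), Zfp36 (55.4 CPM), Rhob (23.1 CPM) and Zfp36l1 (199 CPM) lay near their control levels of 0.90, 2.72, 47.6, 19.3 and 177 CPM by 1.5 h. Other genes were still high at 1.5 h: Myc at 875 CPM, Ccl3 at 7.81 CPM, Plk3 at 8.73 CPM and Egr3 at 7.45 CPM, which for Egr3 was above the 6.67 CPM of 0.5 h. At 5 h Myc stood at 341 CPM, beside 293 CPM in the control, and Nr4a1 and Tnf lay under the control, at 1.56 CPM beside 3.996 CPM and 3.74 CPM beside 8.11 CPM.

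**Figure D4:**
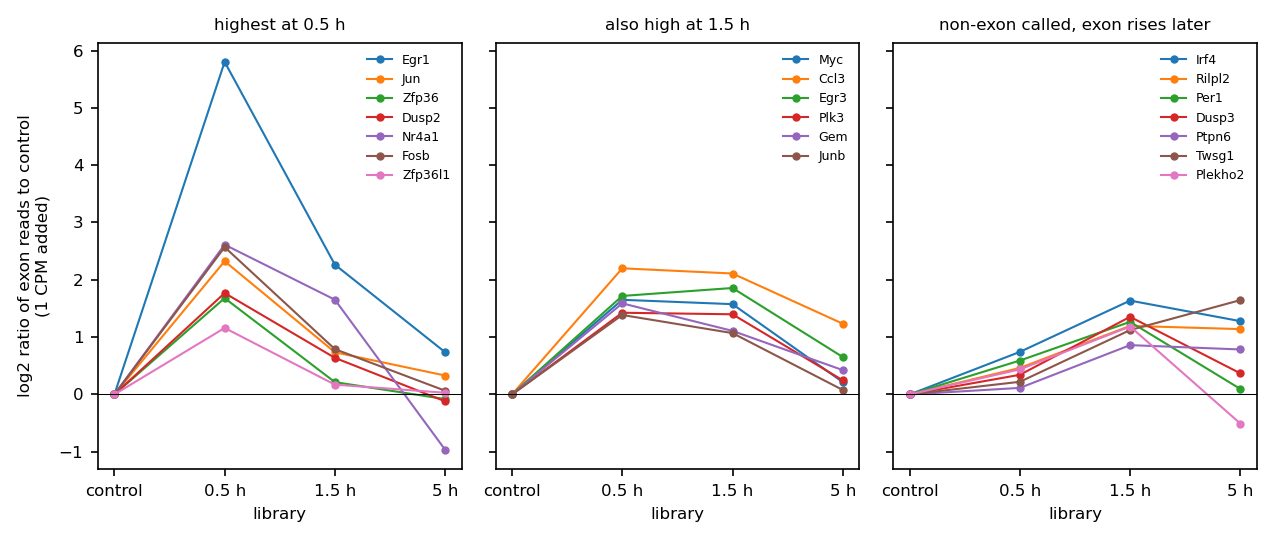
Log2 ratio of the exon level to control (vertical axis, 1 CPM added) in the control, 0.5, 1.5 and 5 h libraries (horizontal axis, not to scale in time), 1 line a gene, 1 library a point. Genes on the left peak at 0.5 h, those in the middle stay high at 1.5 h, and those on the right, called in reads outside exons at 0.5 h, have higher exon levels at 1.5 h than at 0.5 h. The genes drawn are chosen examples of each course.

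Across gene lists written for these cells, the immediate early genes had the highest median. The lists were written with earlier results of these data known, so their counts are a description and no list was tested. The list holds the 10 called transcription factors and nuclear proteins and also Apold1. Of 29 measured members 11 passed the rule upwards and 0 downwards, where 0.245% of all 11010 measured genes were called higher and 0.0182% lower. Ratios were above 0 for 28 of the 29, the exception being Klf10 at -0.03, and the median log2 ratio was 0.67. Klf2, a quiescence factor and FoxO target, had 12 reads in the control and 60 at 0.5 h, 5.10-fold (2.72 to 10.4), under the floor at 1.77 CPM. NF-kB subunits, inhibitors and targets had 1 of 20 called and a median of 0.14, with 16 above 0. Cd69, an activation antigen, was next in this list, from 28.1 to 54.3 CPM, 1.93-fold (1.79 to 2.09), and Nfkbiz, a relative of Nfkbid, was 1.59-fold higher (1.48 to 1.70).

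Lists of calcium, FoxO, receptor, B lineage and IL-7 genes had medians between -0.03 and 0.09 in exon reads. Over all 11010 measured genes 0.245% were called higher and 0.0182% lower, so 0 called in a list of this size does not set it apart. Genes of calcium, calcineurin and NFAT had 0 of 26 called and a median of 0.03, and Rcan1, a calcineurin target, lay at -0.14. FoxO factors and targets had 0 of 29 called, 13 above and 16 below 0, and a median of -0.03. Components of the pre-B cell receptor and its proximal enzymes had 0 of 39 called and a median of -0.01, with Cbl, a ubiquitin ligase that ends receptor signals, the furthest from 0 at 1.44-fold (1.37 to 1.51). Transcription factors of the B lineage had 0 of 33 called and a median of 0.09, led by Irf4. IL-7 and STAT5 targets had 2 of 24 called, Myc and Cish, and a median of 0.04, with 14 above 0. Pim3, a survival kinase, came next in this list at 1.93-fold (1.66 to 2.25).

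Lists of growth and stress and of the inducing domain had few or no called members, with medians from -0.05 to 0.24. Here too 0 called members lies near the 0.245% called higher over all measured genes. Ribosome biogenesis genes had 0 of 32 called and a median of 0.05, and cell cycle genes 0 of 28 and 0.05, with Cdk6 the furthest at 1.52-fold (1.435 to 1.605). Heat shock genes had 0 of 14 called and a median of -0.03, with Hspa1b, an inducible HSP70, the furthest at 4.49 and 8.42 CPM (log2 ratio 0.78, 27.05% of reads unique). Genes of the oestrogen response had 0 of 9 called and a median of 0.15, led by Nrip1 at 0.38. Genes of the integrated stress and unfolded protein response had 1 of 21 called, Ppp1r15a, and a median of 0.14, and p53 targets 1 of 15, Plk3, and 0.24. Housekeeping genes had a median of -0.05.

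**Figure D5:**
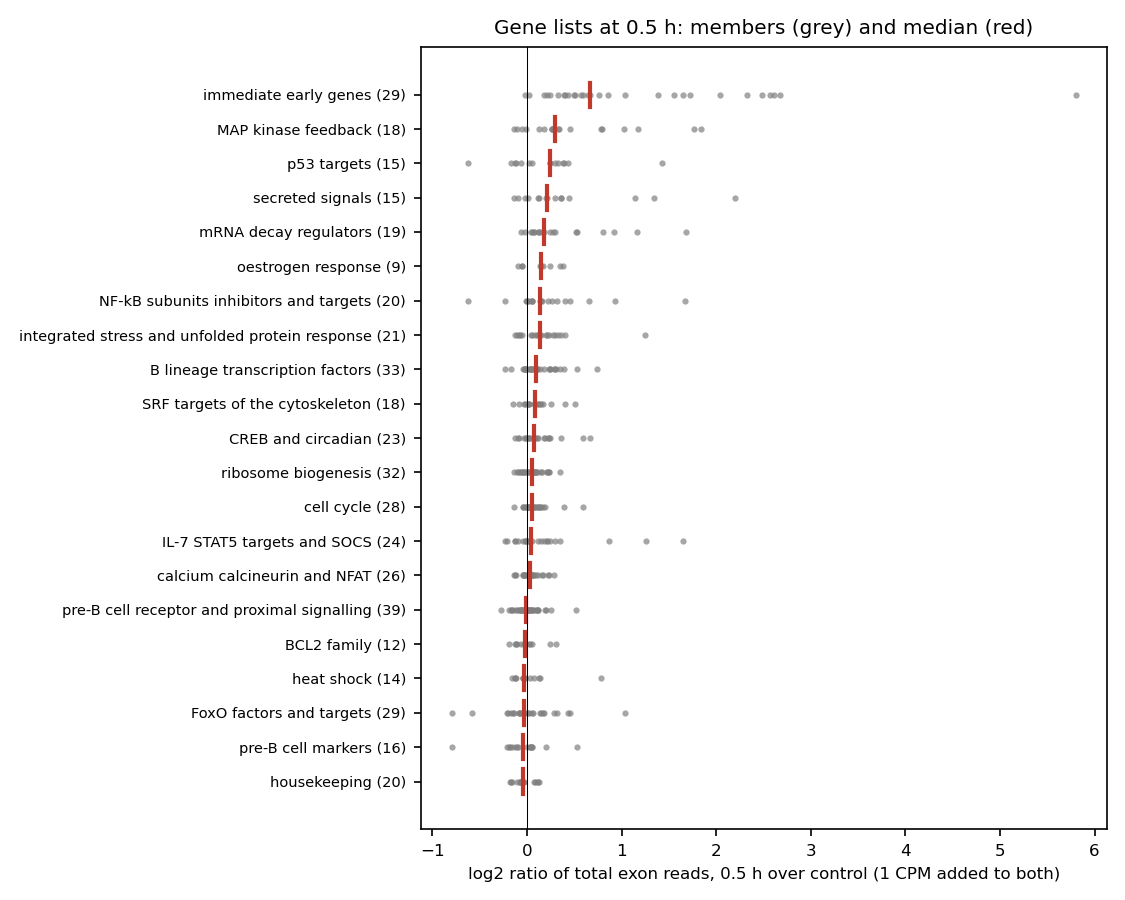
Log2 ratio of total exon reads at 0.5 h over control (horizontal axis, 1 CPM added) for the measured members (grey points) of each gene list with at least 9 of them (number in brackets), with the list median (red). The immediate early genes reach from -0.03 to 5.80 around a median of 0.67, and the medians of FoxO targets, pre-B cell markers and housekeeping genes lie just below 0.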

How the data were processed

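Poly(A) RNA was sequenced on an Illumina HiSeq 2500 with a TruSeq or NEBNext kit; the kit of each library is not stated. CASAVA 1.8.2 and build mm10 are named in the submitters' processing notes; which aligner, counter and strand were used is not stated in these sources. The authors deposited unnormalized read counts for each gene in each lane (total and unique, exon and gene), per the file headers. A signed fold change, a score on the authors' own scale per the file headers, was used only as an alternative. RPKM columns were not used.

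The 4 lanes of a library were summed and scaled to CPM. Non-exon reads were scaled to 1000000 of the library's own. Lanes share numbers across libraries but are technical repeats. Gene calls follow the rule of size in the report; intervals are exact Clopper-Pearson 95% intervals. Gene lists hold 550 genes, of which 548 were found. Members and lists were chosen with earlier results of these data known. Named genes are all called genes, those between 1.8-fold and 2-fold, the 15 largest non-exon ratios in each direction, up to 4 members of each list with the largest ratios and a fixed set of B cell genes; not all are printed. Others named in the text (such as Klf6, Mycn, Hipk2, Cnn2, Rcan1, Dusp5 and the sterol genes) were chosen after their values were seen.

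Alternatives were other pseudocounts, floors and ratios, TMM (edgeR) and DESeq2 scaling factors, unique exon, total gene and total non-exon reads, non-exon reads scaled to unique exon reads, leaving out each lane, lanes as blocks and the authors' fold. Splice junction reads, genes with at least 50% unique reads and genes with no overlapping feature were added after seeing the data. The calling code was tested on simulated data. Promoters come from RefSeq (GRCm38.p6) and 3' UTRs from GENCODE vM21. Computations ran in Python 3.11.15 (numpy 2.4.6, pandas 2.3.3, matplotlib 3.10.9, scipy 1.17.1).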

Additional observations from a re-analysis of the deposited data

Results flagged for a closer look

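In 60 groups of 4 lanes, 3 had 1 lane whose gap to the nearest other lane exceeded Dixon's critical value, and chance gives about 1 in 20. The control lanes of Junb held 1 low value, 31.6 CPM, beside 36.7 to 36.9 CPM in the others. The 0.5 h lanes of Egr1 held 1 high value, 155 CPM, beside 152 to 153 CPM. The 0.5 h lanes of Tsix held 1 high value, 22.6 CPM, beside 9.20 to 11.2 CPM, and without that lane number the call of Tsix was lost.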

How the results depend on the processing

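Under TMM factors, DESeq2 size factors and lanes as a replicate block (paired by lane number, which marks technical repeats), 27 genes were higher and 2 lower, as reported. Leaving out each lane gave 27 to 29 higher and 1 to 4 lower; Hist1h2ap was lost without lane 1 or lane 4, and Tsix without lane 2. In exon reads the higher count became 16 with a floor of 20 CPM, 64 at 1.5-fold and 8 at 4-fold. It became 30 with a pseudocount of 0.1 CPM and 19 with 5 CPM, where Dusp1, Egr3, Fos, Plk3, Tnf, Gm20390, Hist1h2ap and Tsix were lost. In total gene reads Egr2, Hist1h2ap and Tsix were lost. The lower count became 4 with a pseudocount of 0.1 CPM, 0 with 5 CPM, 1 with a floor of 20 CPM, 14 at 1.5-fold, 0 at 4-fold, 0 in unique exon reads, 4 in total gene reads, 5 by the authors' deposited fold change, 1 in splice junction reads and 0 among genes with at least 50% of reads unique. Ramp2 had a log2 ratio of 0.0496 in unique exon reads, from 0 and 1 reads. Splice junction reads called 22 genes higher, 12 of them shared. The 15 lost were Jun, Junb, Ier2, Rhob and Hist1h2ap, which have no intron in the table, and Apold1, Cish, Dusp1, Egr2, Egr3, Fos, Fosb, Tnf, Gm20390 and Tsix. In all 13 settings that kept the floor and ratio, junction reads included, 10 of the 29 called genes kept their call: Ccl3, Dusp2, Egr1, Gem, Myc, Nfkbid, Nr4a1, Phlda1, Ppp1r15a and Zfp36.

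In non-exon reads, 51 and 18 became 88 and 54 with a floor of 20 reads and 309 and 164 at 1.5-fold. They became 37 and 11 with a floor of 100 reads, where Egr3, Dusp2, Cish and Phlda1 were among the genes lost. With a pseudocount of 5 CPM they became 36 and 5, and Cish, Actb, Ccng2, Cd79b and Pgf were among those lost. Total in place of unique reads gave 59 and 25, of which 44 and 13 were shared with the reported calls. Leaving out each lane gave 47 to 52 higher and 13 to 20 lower, of which 38 to 42 and 9 to 14 were shared with the reported calls. The floor of 50 reads then stood on fewer lanes. Among genes named here, Egr3 was lost without lane 1, 2 or 3, Dusp2 and Cish on leaving out any of the 4 lanes, Phlda1 and Idi1 without lane 3, Actb without lane 1, Sc4mol and Ccng2 without lane 2, Cd79b without lane 1 or 4 and Pgf without lane 4. Among genes with no overlapping feature 46 and 17 were left; Cish and Tob2 were among those overlapped. Stricter floors and ratios leave fewer genes by construction; the cause of the other changes was not tested. Depth limits the low genes: under the floor 3 genes (Ccl4, Klf2, Spry4) were past 2-fold higher and 0 lower.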

Other observations

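Cyp51, Idi1 and Sc4mol, enzymes of sterol synthesis picked after their values were seen, were called in reads outside exons; no list of the pathway was counted. Cyp51 had 238 non-exon reads in the control and 585 at 0.5 h, 2.496-fold (2.14 to 2.91), with exon levels of 272 and 294 CPM. Idi1 had 51 and 111 such reads, 2.21-fold (1.57 to 3.14), and Sc4mol 368 and 734, 2.03-fold (1.78 to 2.30). The calls of Idi1 and Sc4mol were lost with a pseudocount of 5 CPM, and without lane 3 and lane 2 in turn. At 5 h the exon levels of Cyp51, Idi1 and Sc4mol were 229, 124 and 91.9 CPM, beside 272, 143 and 137 CPM in the control.

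The 3' UTRs of the called genes were searched after the results were known for the AU-rich nonamer TTATTTATT, a form of the element that ZFP36 proteins bind. It stood in 10 of 26 called genes (38.5%), beside 7.29% of 8601 genes at 5 CPM, although the median 3' UTR was shorter, at 759.5 bases beside 990. The 10 genes were Apold1, Cish, Dusp1, Fos, Phlda1, Plk3, Ppp1r15a, Tnf, Zfp36 and Zfp36l1. The pentamer ATTTA occurred 4.0 times per kilobase of 3' UTR in the called genes and 1.83 times in the 8601. Among 3' UTRs of 500 to 1000 bases, 5 of 10 called genes held the nonamer (50%), beside 5.07% of 1756 genes. These shares are a description, with no test.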
